A study of Mus musculus with 2 samples.

Results

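Glutamate and GABA metabolism in Neuro2a cells was followed through 8 genes, Abat, Gad1, Gad2, Aldh5a1, Glul, Glud1, Got1 and Got2, of the 18193 genes that the array annotation names. Its members were all the probe sets whose annotation gives 1 of these symbols alone, by its current or an older name. This gave 16 probe sets, and no probe set listed a member together with another gene. Neuro2a is a mouse neuroblastoma line. One culture was transfected with siRNA against the coding region of Cpeb1 mRNA (siCPEB1) and the other with control siRNA (siControl), both for 24 h. RNA of each culture (100 ng) was measured on 1 Affymetrix mouse array, so each condition has 1 array, no test can be made and no p-value can be given. Each ratio below describes these 2 arrays of 1 cell line, and the spread between cultures is unknown. The arrays measure mRNA, not enzyme or transmitter.

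GABA is made and removed in a short side path of the tricarboxylic acid cycle, the GABA shunt. The glutamate decarboxylases encoded by Gad1 and Gad2 make GABA from glutamate, the mitochondrial transaminase encoded by Abat turns GABA into succinic semialdehyde, and the dehydrogenase encoded by Aldh5a1 oxidizes this to succinate. Glutamate itself is joined with ammonia to glutamine by glutamine synthetase (Glul), is linked to 2-oxoglutarate by glutamate dehydrogenase (Glud1), and exchanges its amino group with oxaloacetate through the aspartate aminotransferases of the cytosol (Got1) and the mitochondrion (Got2). In brain, Gad1 and Gad2 are known as genes of inhibitory neurons and Glul as a gene of astrocytes.

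The deposited values are signals on a linear intensity scale, and the signals of different probe sets cannot be set against each other, because each binds its own target with its own strength. Each array was divided by its median signal, which was 21.6 in siCPEB1 and 21.0 in siControl. A probe set counted as measured if its signal was at or above this median on one array and at or above that array's 25th percentile (5.62 in siCPEB1 and 5.07 in siControl) on the other, and as higher or lower if its ratio was then above 2 or below 0.5. Cpeb1, the targeted gene, had a signal of 38.5 in siCPEB1 and 302.5 in siControl at its 1 probe set, a log2 ratio of -3.01. Several probe sets often measure one gene, and within genes their log2 ratios had an SD of 0.37 over 14939 probe sets, 0.55 among the dimmest 2997 and 0.25 among the brightest 4036 of them. For the 18 hybridization controls, log2 ratios averaged -0.17 (SD 0.075). Of 13 markers of sympathetic neurons and neuroblastoma on the array 12 were measured, 5 were higher (Phox2a, Gata3, Mycn, Isl1 and Ddc) and none was lower. Of all genes 4.54% were higher and 3.89% lower. With unscaled signals 7 of these markers were higher, and 6 with quantile or loess values or 16 added. The signal of the 13, summed over the brightest probe set of each gene, measured or not, was 17129 in siCPEB1 and 12017 in siControl. Such a sum, also given for the lists below, is carried by its brightest probe sets and is not a measure of cell content. Of the 12, 10 had a log2 ratio above 0 and 2 below, Gata2 (-0.53) and Stmn2 (-0.34). Mycn was higher at its brightest probe set (log2 ratio 1.32), against 0.66 and -0.97 at its other measured probe sets. Hand2, the brightest of these markers, had 4032 in siCPEB1 and 3191 in siControl (log2 ratio 0.30). Th, which starts catecholamine synthesis, stayed below the array medians at 17.9 in siCPEB1 and 18.6 in siControl. None of 7 astrocyte markers was measured, and their summed signal was 77.0 in siCPEB1 and 68.8 in siControl. Of 4 oligodendrocyte markers on the array 2 were measured, Mbp and Cnp, with log2 ratios of 0.94 and 0.22 at 1 probe set each, while the summed signal of the list was 303 in siCPEB1 and 418 in siControl, in which Cnp counts with its brightest probe set, an _x_at one with 240.3 in siCPEB1 and 357 in siControl. Of 7 fibroblast markers 3 were measured, and they went opposite ways. Col1a2 was higher (309 in siCPEB1 and 42.3 in siControl, log2 ratio 2.83). Pdgfrb was lower (26.9 in siCPEB1 and 97.1 in siControl, log2 ratio -1.89), and Pdgfra was within 2-fold. The summed signal of all 7, measured or not, was 416 in siCPEB1 and 191 in siControl. Of 5 haematopoietic markers 2 were measured. Tyrobp was higher (22.8 in siCPEB1 and 9.62 in siControl, log2 ratio 1.21). Csf1r was within 2-fold at its brighter measured probe set (43.1 in siCPEB1 and 39.5 in siControl). The summed signal of all 5, measured or not, was 81.8 in siCPEB1 and 63.4 in siControl. The siControl signal of Tyrobp was below the array median, so it was measured only through siCPEB1. With 16 added to both signals, or the median required in both arrays, none of this list was higher. The part of these differences in the ratios below was not tested, and fewer cells of a type and less RNA per cell cannot be told apart.

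Of the 16 probe sets of the 8 genes, 10 were measured, all 10 above the median in both arrays. Among these, 1 was higher by more than 2-fold (Abat) and 1 was lower (Got1), against 4.10% higher and 4.54% lower of all 23655 measured probe sets. The other 8 were within 2-fold. Counted as genes, 1 of 6 was higher and 1 was lower, against 4.54% higher and 3.89% lower of 11554 genes, and the median log2 ratio was -0.18 for the 6 genes and 0.0049 for all genes. These counts are too small to set the 8 genes apart from the rest of the array.

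**Figure D1:**
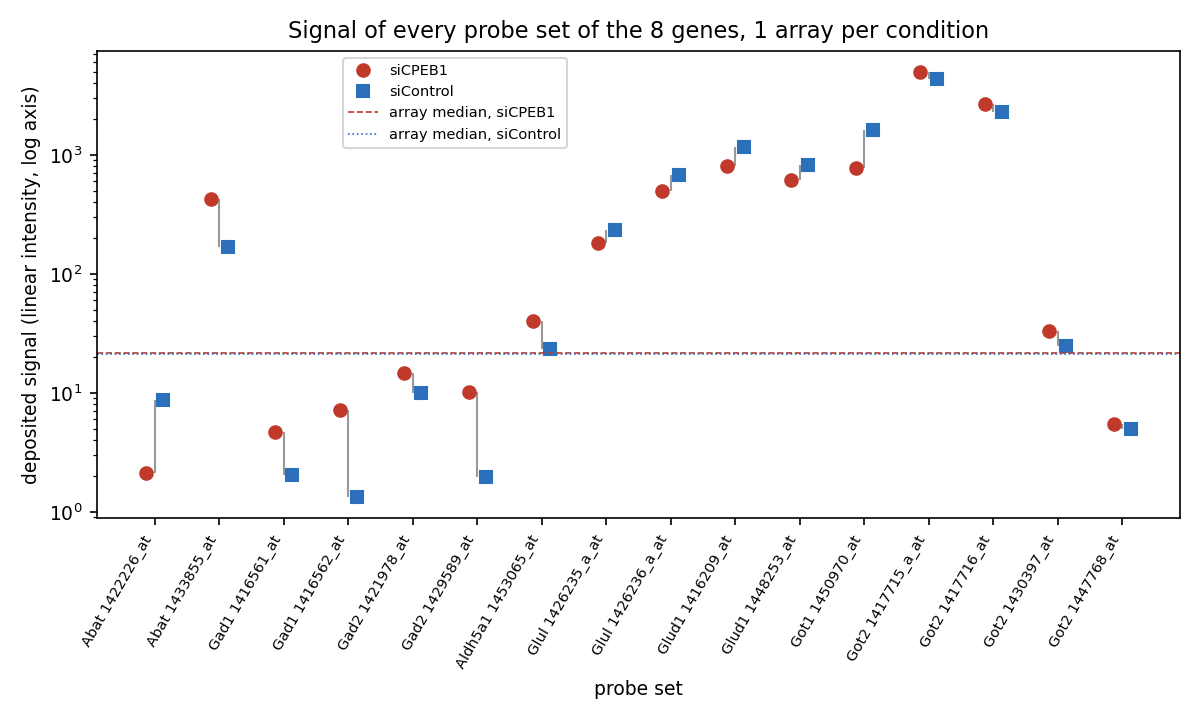
Deposited signal (linear intensity on a log axis) of each of the 16 probe sets of the 8 genes in siCPEB1 (circles) and siControl (squares), 1 array each, with the median of each array as a horizontal line. Abat 1433855_at lies higher and Got1 lower in siCPEB1, while the 4 probe sets of Gad1 and Gad2 and 1 each of Abat and Got2 lie below both medians.

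The 2 genes past 2-fold encode enzymes of different reactions, Abat within the GABA shunt and Got1 outside it. Because Got1 and Got2 encode the same reaction in different compartments and had ratios on opposite sides of 0, the promoters of this pair (250 bases before to 50 after the start, RefSeq, GRCm38.p6, 5′ to 3′) are given here. Got1 lies at chr19:43524556-43524855 and Got2 at chr8:95888352-95888651, both on the minus strand. Capitals mark matches on either strand, without overlap between different motifs, to the CCAAT box (CCAAT), the TATA box (TATAAA) and the core of the amino acid response element (TGATGCAA), which the transcription factor ATF4 is known to use at genes of amino acid supply.
Got1: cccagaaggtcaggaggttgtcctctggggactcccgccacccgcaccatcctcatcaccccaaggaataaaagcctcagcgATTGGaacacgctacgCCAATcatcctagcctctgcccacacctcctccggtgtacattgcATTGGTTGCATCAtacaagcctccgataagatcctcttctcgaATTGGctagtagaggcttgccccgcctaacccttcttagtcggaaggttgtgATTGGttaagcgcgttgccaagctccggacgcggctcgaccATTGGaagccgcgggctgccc
Got2: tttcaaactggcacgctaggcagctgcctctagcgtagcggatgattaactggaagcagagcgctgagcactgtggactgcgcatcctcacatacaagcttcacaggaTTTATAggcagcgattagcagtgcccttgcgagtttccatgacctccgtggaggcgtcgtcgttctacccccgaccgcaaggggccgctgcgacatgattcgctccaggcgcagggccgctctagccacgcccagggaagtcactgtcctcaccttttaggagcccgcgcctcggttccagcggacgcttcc
The Got1 sequence held 6 matches to the CCAAT box and 1 to the amino acid response element, written there as its reverse complement. The Got2 sequence held 1 match to the TATA box and none to the other two. Of 32817 promoters of the same length, 37.4% held the CCAAT box, 0.896% the amino acid response element and 13.6% the TATA box. Neither sequence held the cAMP response element (TGACGTCA), which 1.79% of promoters held, the E-box (CACGTG), which 7.15% held, or the GC box (GGGCGG), which 35.6% held. Promoters of 7 of the 8 genes were matched (all but Abat), after entries on a chromosome that holds none of the 8 genes were left out. Among the promoters kept, the amino acid response element was in that of Got1 alone. A match is a run of letters, not a site shown to be bound.

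Abat, on chromosome 16 from 8513429 to 8621568 of GRCm38, was the gene of the path that was higher in siCPEB1. Its probe set 1433855_at had a signal of 424 in siCPEB1 and 168 in siControl, which is 2.46-fold higher (log2 ratio 1.30). This ratio was above 99.8% of those of the 500 probe sets nearest in signal. The gene's other probe set, 1422226_at, had signals of 2.12 in siCPEB1 and 8.71 in siControl, both below the array medians, with a log2 ratio of -2.08, and 15.0% of its 500 neighbours in signal had a lower one. The higher value of Abat rests on 1 probe set on 1 array per condition. The study also measured Abat by qPCR, with the primers printed here to identify its amplicon, and those values were not analysed here.
Abat forward: gctccaatgagaatgcattc
Abat reverse: cctctttggagaaacctctc

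Aldh5a1, which takes up the product of Abat, lies on chromosome 13 (24907579 to 24937661) and had a signal of 40.4 in siCPEB1 and 23.2 in siControl at its 1 probe set. Its log2 ratio of 0.76 (1.69-fold) was on the same side as that of Abat but within 2-fold, and was 0.50 with 16 added to both signals. Its siControl signal lay just above the array median of 21.0. Of the 500 probe sets nearest in signal, 89.8% had a lower ratio.

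The genes of the GABA-making enzymes did not reach the signal counted as measured. Gad1, on chromosome 2 (70561303 to 70602014), had signals of 4.69 and 7.23 in siCPEB1 at 1416561_at and 1416562_at, against 2.06 and 1.33 in siControl. Gad2, on the same chromosome (22621015 to 22693877), had signals of 14.8 and 10.3 in siCPEB1 at 1421978_at and 1429589_at, against 9.97 and 1.96 in siControl. In rank on the array the 4 probe sets lay between the 22.5 and 43.1 percentiles in siCPEB1 and between the 10.7 and 36.3 percentiles in siControl, all below the median. Their log2 ratios of 1.14, 2.40, 0.53 and 2.35 were all above 0, but shrank to 0.17, 0.40, 0.22 and 0.53 with 16 added to both signals, and between 65.8% and 88.6% of the nearest probe sets had lower ones. The 4 probe sets of Slc32a1, the transporter that loads GABA into synaptic vesicles, were also below both medians, with signals up to 6.09 in siCPEB1 and up to 11.8 in siControl.

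**Figure D2:**
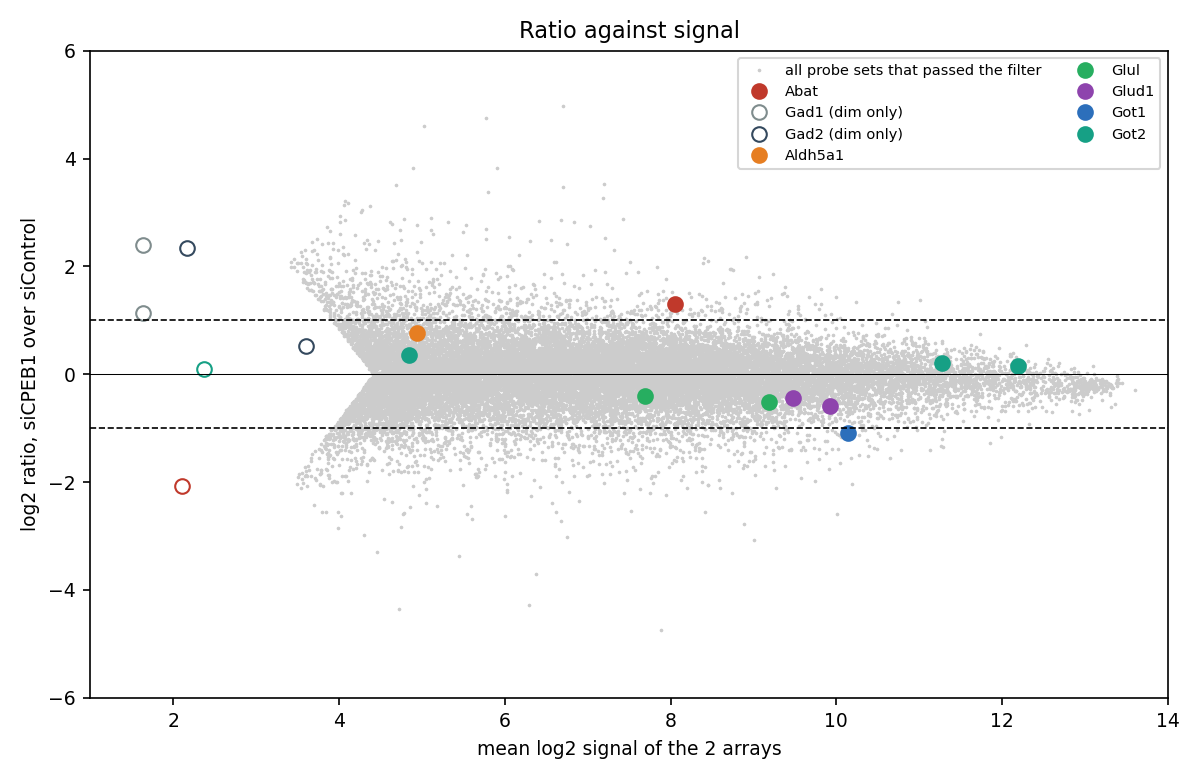
Log2 ratio of siCPEB1 over siControl (y axis) against the mean log2 signal of the 2 arrays (x axis) for the 23655 measured probe sets (grey) and the 16 probe sets of the 8 genes (coloured, open where not measured), with dashed lines at 2-fold. Abat lies above the upper line at a mean log2 signal of 8.06 and Got1 below the lower line at 10.1, the open circles lie at the dim end, and the straight edges of the grey cloud come from the filter on signal.

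Glul and Glud1 had ratios below 0 at both of their probe sets. Glul, on chromosome 1 (153899929 to 153909723), had signals of 182 and 495 in siCPEB1 at 1426235_a_at and 1426236_a_at, against 234 and 684 in siControl. These gave log2 ratios of -0.40 and -0.51, which differ by 0.10. Glud1, on chromosome 14 (34310727 to 34345033), had signals of 804 and 622 in siCPEB1 at 1416209_at and 1448253_at, against 1175 and 817 in siControl, with log2 ratios of -0.59 and -0.43, which differ by 0.15. For each gene its 2 probe sets thus lay closer together than the within-gene SD of 0.25 of bright probe sets. Neither gene was past 2-fold, and 10.0% to 19.0% of the probe sets nearest in signal had a lower ratio. Glul was thus measured on arrays on which no astrocyte marker was.

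The aspartate aminotransferases had ratios on opposite sides of 0. Got1, on chromosome 19 (43499752 to 43524605), had a signal of 782 in siCPEB1 and 1624 in siControl at its 1 probe set, which is 2.14-fold lower (log2 ratio -1.09), and 2.4% of the 500 nearest probe sets had a lower ratio. Got2, on chromosome 8 (95864133 to 95888401), had signals of 4979 and 2699 in siCPEB1 at 1417715_a_at and 1417716_at, against 4376 and 2278 in siControl, with log2 ratios of 0.15 and 0.20, above those of 89.8% and 84.6% of the nearest probe sets. The dimmer probe set 1430397_at had 32.9 in siCPEB1 and 24.9 in siControl (log2 ratio 0.36), and 1447768_at, which was not measured, had 5.43 in siCPEB1 and 4.94 in siControl. The log2 ratio of Got1 was 1.24 to 1.46 below those of the measured Got2 probe sets, a gap larger than the within-gene SD of 0.37. That SD describes probe sets of the same gene, and is not a spread between genes or between cultures. Got1 rests on 1 probe set, close to the 2-fold line, and was 2.04- to 2.14-fold lower over 6 ways of scaling the signals. None of the 6 was a scaling to the hybridization controls, whose log2 ratios averaged -0.17 with the array median, so its call under such a scaling was not tested.

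**Figure D3:**
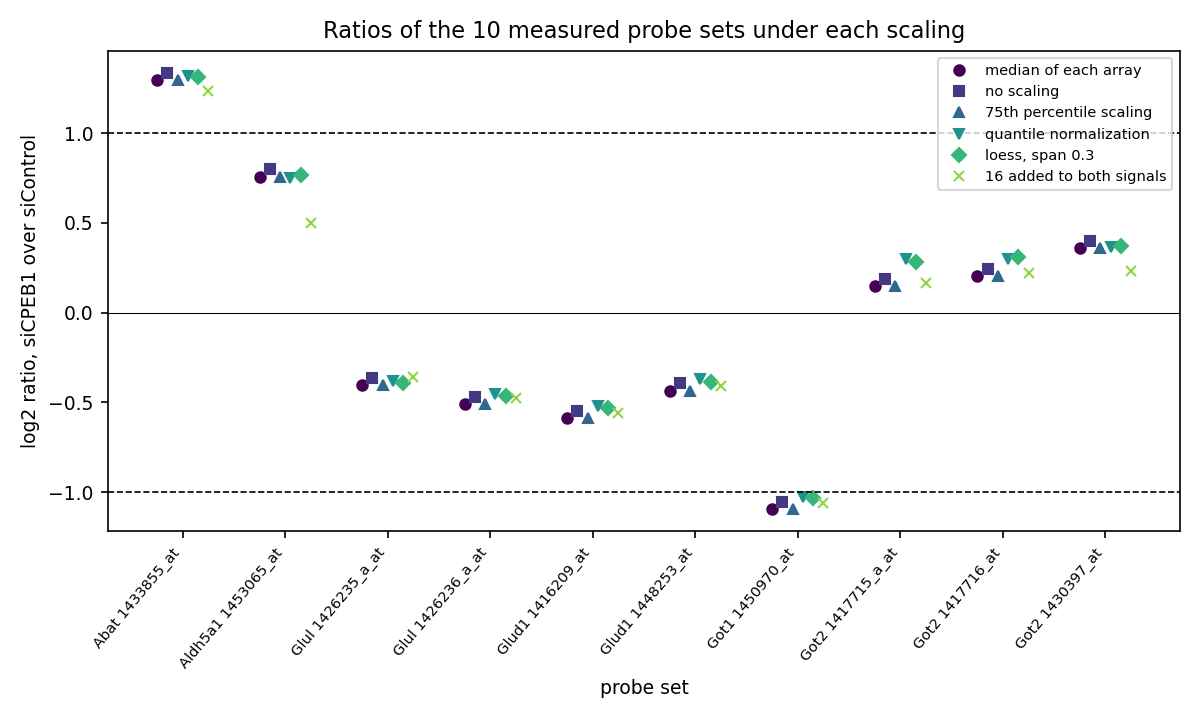
The 10 measured probe sets (x axis) and their log2 ratios of siCPEB1 over siControl (y axis), with signals scaled by the array median and under the 5 other settings (symbols), and dashed lines at 2-fold. Abat stays above the upper line (1.24 to 1.34) and Got1 below the lower line (-1.09 to -1.03) in all 6, and no measured probe set crosses 0.

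The genes around these steps were described with 8 lists of 81 genes, of which 73 were on the array and 52 were measured. With 1 probe set per gene, none was higher and 1 was lower by more than 2-fold, against 4.54% higher and 3.89% lower of all 11554 genes. A log2 ratio below 0 was found for 31 of the 52 and one above 0 for 21, and the median was -0.11, against 49.6% below 0 and a median of 0.0049 over all genes. The gene past 2-fold was Slc1a7, a glutamate transporter, with 14.5 in siCPEB1 and 31.5 in siControl (log2 ratio -1.16). Its siCPEB1 signal was below the array median, so it was measured only through siControl.

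Of 16 other genes of glutamate enzymes 11 were measured, and none was past 2-fold with 1 probe set per gene (median -0.15). Psat1, the phosphoserine aminotransferase of serine synthesis and the brightest of them, had 3547 in siCPEB1 and 4501 in siControl (log2 ratio -0.38). Outside the rule for naming genes, and picked after their values were seen, were Gpt2, Got1l1, Pdxk, Slc25a12 and Slc7a11. Gpt2, the mitochondrial alanine aminotransferase, had log2 ratios from -0.67 to -0.56 at 4 probe sets, the brightest of which had 849 in siCPEB1 and 1317 in siControl. Got1l1, named for its likeness to Got1, had 80.9 and 126 in siCPEB1 at 2 probe sets, against 22.5 and 66.4 in siControl (log2 ratios 1.81 and 0.88), so 1 of its probe sets was past 2-fold in the direction opposite to Got1.

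Pyridoxal phosphate, the active form of vitamin B6, is the cofactor of the enzymes of Abat, Gad1, Gad2, Got1 and Got2. Of 4 genes of its supply 3 were measured. Pdxk, the kinase that makes the phosphorylated vitamers, had 172, 30.7 and 83.6 in siCPEB1, against 318, 76.3 and 178 in siControl. These gave log2 ratios of -0.93, -1.35 and -1.13, so 2 of its 3 probe sets were lower by more than 2-fold, while the one that represents the gene was not. Pdxp, the phosphatase that acts in the other direction, had 1145 in siCPEB1 and 823 in siControl (log2 ratio 0.44), and Plpbp, which binds the cofactor, had a log2 ratio of -0.14.

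Got1 and Got2 are the aminotransferases of the malate-aspartate shuttle, which carries reducing equivalents of NADH into the mitochondrion. Of its 5 other genes 4 were measured, 3 with a log2 ratio above 0 and 1 below, and none past 2-fold (median 0.32). The mitochondrial malate dehydrogenase Mdh2 had 6757 in siCPEB1 and 5369 in siControl at its brighter probe set (log2 ratio 0.29). The aspartate-glutamate carrier Slc25a12 had 500.4 in siCPEB1 and 769 in siControl at its brightest probe set (log2 ratio -0.66). Of 11 genes of the steps around succinate, into which the GABA shunt feeds, 10 were measured and 5 lay on each side of 0 (median -0.03, and between 0.0086 and 0.042 with unscaled, quantile or loess values). Sdhb, an iron-sulphur subunit of succinate dehydrogenase and the brightest of them, had 3875 in siCPEB1 and 5199 in siControl (log2 ratio -0.46). Of 5 further enzymes that handle GABA, its precursor putrescine or succinic semialdehyde, 3 were measured, all with a log2 ratio below 0 (median -0.24), against 2 of 3 with unscaled, quantile or loess values, which turn Aldh9a1. Odc1, which makes putrescine, had 2822 in siCPEB1 and 3845 in siControl (log2 ratio -0.49).

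Of 23 transporters of glutamate, glutamine and GABA, 21 were on the array and 9 were measured, 7 of them with a log2 ratio below 0 (median -0.11), against 6 of 9 with unscaled signals. Slc38a2, a glutamine and alanine transporter and the brightest, had 2215 in siCPEB1 and 2436 in siControl (log2 ratio -0.18). Slc7a11, which exports glutamate in exchange for cystine, had 77.8 and 27.6 in siCPEB1, against 134 and 48.6 in siControl (log2 ratios -0.83 and -0.86). The astrocytic glutamate transporters Slc1a2 and Slc1a3 were not measured at any of their probe sets.

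**Figure D4:**
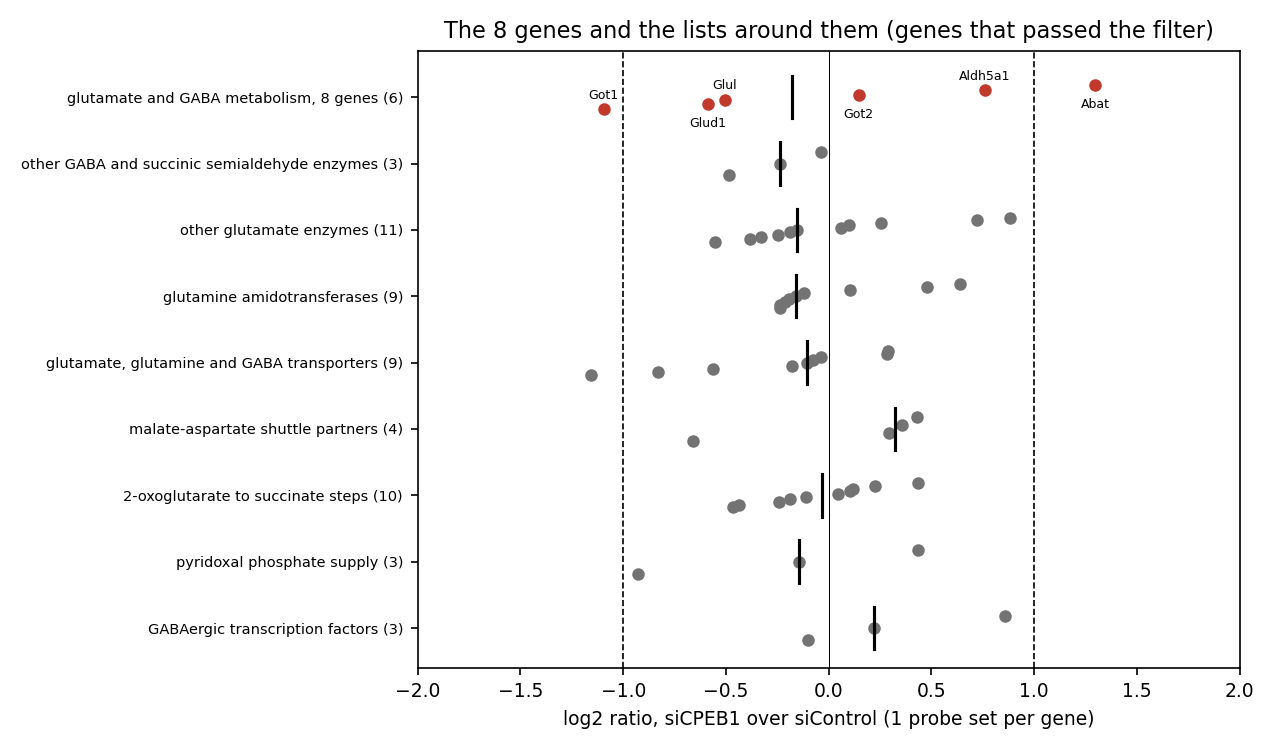
Log2 ratio of siCPEB1 over siControl at 1 probe set per gene for the measured genes of the 8-gene set (top) and of the 8 lists around it (points, with the number of measured genes in parentheses), with list medians as black bars and dashed lines at 2-fold. Abat and Got1 lie outside the lines, and of the 52 other genes 1, Slc1a7, does.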

How the data were processed

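Labelled cRNA from 1 siCPEB1 and 1 siControl culture was hybridized to Affymetrix mouse arrays. The deposited values are MAS5 signals, linear intensities that the authors obtained with Affymetrix Expression Console (named without a version in the submitters' processing notes). MAS5 removes background and applies 1 factor per array (target not stated), and detection flags were not used here.

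Each array was divided by its median over 45101 probe sets, which shifted log2 ratios by -0.04. Counts left out 64 AFFX controls. For gene symbols the platform annotation was used, brought up to date with RefSeq (GRCm38.p6): of 45037 probe sets, 34945 had 1 symbol, 932 several and 9160 none listed. In counts of genes, a gene was read from its brightest measured probe set, by preference not an _x_at or _s_at one. Named were all probe sets of the 8 genes, Cpeb1, and of each list the brightest measured gene and genes with all measured probe sets past 2-fold in 1 direction. All other genes given with values or a call, among them Mycn, Gata2, Stmn2, Th, Mbp, Pdgfra, Plpbp, Slc32a1, Gmps, Dlx2 and Lhx6, were picked after their values were seen. The members and lists were chosen with earlier results of these data known. Alternatives were 4 scalings (none, 75th percentile, quantile, loess with span 0.3), 16 added to both signals, 2 other filters, no _x_at or _s_at probe sets, the mean over a gene's probe sets, and 2000 neighbours. The steps were tested on simulated data. Python 3.11.15, numpy 2.4.6, pandas 2.3.3, statsmodels 0.14.6 and matplotlib 3.10.9 were used. The number of arrays limits the precision.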

Additional observations from a re-analysis of the deposited data

How the results depend on the processing

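Abat and Got1 kept their direction and their side of 2-fold under all 5 other scalings or constants and under both other filters, and the other 8 measured probe sets stayed within 2-fold. With no filter on signal, 4 probe sets of the 8 genes were higher and 2 were lower, the added ones being 3 of Gad1 and Gad2 and the dim probe set of Abat, whose signals lie below the array medians. In the lists around the 8 genes, with no filter 4 genes were higher and 6 lower. With the mean of all measured probe sets per gene, 1 was higher (Got1l1) and 2 were lower (Slc1a7 and Pdxk). With 16 added to both signals, or with the median required in both arrays, 0 were lower, because Slc1a7 no longer counted. Of the log2 ratios of single member probe sets under these settings, those that moved by more than the within-gene SD were 4 dim ones of Abat, Gad1 and Gad2 with 16 added. Among 2000 in place of 500 neighbours, the brightest Got2 probe set was above 80.7% in place of 89.8%. Of all probe sets tested, 1.78% were higher and 2.07% lower with 16 added, 2.31% and 3.18% with the median required in both arrays, and 13.7% and 12.4% with no filter. No paired analysis was possible because each condition has 1 array. Signal over background was not measured here, so the array median that left out Gad1 and Gad2 is a filter and not a limit of detection.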

Other observations

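Enzymes that use the amide nitrogen of glutamine were measured at all 9 listed genes, 6 of which had a log2 ratio below 0 (median -0.16), with none past 2-fold when each gene was read from 1 probe set. Asns, asparagine synthetase and the brightest, had 6167 in siCPEB1 and 6946 in siControl (log2 ratio -0.21). Among those above 0, and named after their values were seen, were the enzymes of early purine synthesis, Ppat with 1065 in siCPEB1 and 665 in siControl (log2 ratio 0.64, and 0.57 at its other measured probe set) and Pfas with 539 in siCPEB1 and 376 in siControl (0.48). Gmps, which makes GMP, had log2 ratios of -0.24, -1.12 and -0.83 at its 3 probe sets, the lowest from signals of 64.4 in siCPEB1 and 136 in siControl. Of 8 transcription factors of GABAergic neurons 3 were measured, Dlx1, Dlx2 and Lhx6, with log2 ratios of -0.10, 0.22 and 0.86 (Lhx6 with 58.7 in siCPEB1 and 31.5 in siControl at its measured probe set), none past 2-fold.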
